A study of Mus musculus with 2 samples.

Results

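Erythroid lineage genes were followed in mouse hematopoietic stem cells (HSC, the bone marrow cells from which all blood lineages arise) on 2 Affymetrix 3' expression arrays. The set holds 9 genes, taken by symbol or synonym from 18193 genes that had a probe set of their own: Gata1, Klf1, Tfrc, Car1 and Car2, expressed from the erythroid progenitor stages on, and Aqp1, Sptb, Slc4a1 and Hba-a2, which belong to the membrane, skeleton and hemoglobin of the maturing red cell. Only probe sets naming 1 gene were used, which gave 14 probe sets, 1 for each of 6 genes and several for Tfrc, Sptb and Slc4a1. One array carried RNA of cells of the genotype SIRT6 knockout and the other RNA of wild type cells, both from mice aged 3 months, so each genotype had 1 array. Sirt6 is a nuclear NAD-dependent deacylase of histones. The sources used here do not state how its allele was disrupted, how cells were sorted or whether animals were pooled. With no replicate there was no test, and each difference compares these 2 RNA samples only.

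Red cell formation starts when a progenitor turns on the zinc finger factor Gata1, which with its partner proteins activates Klf1, a Krüppel-like factor that in turn drives globin, heme and membrane genes. Developing erythroblasts import iron through the transferrin receptor (Tfrc) for heme synthesis and switch on carbonic anhydrases. The anion exchanger Slc4a1 (band 3), spectrin and the alpha and beta globins accumulate as the cells mature. Stem cells sit upstream of this program and hold low levels of several erythroid factors before commitment.

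Sirt6 itself read 174 on the array labelled knockout and 124 in wild type on its 1 probe set, so the targeted transcript was not lower under that label. The sources used here do not say whether this probe set lies in the deleted part, so it checks nothing about the genotype, and every direction rests on the label. Arrays had median signals of 60.7 (knockout label) and 60.8 (wild type) over 45037 probe sets, and their number limits the precision. A floor was set at a signal of 60.5 (log2 5.92), the middle of the mean log2 signals of all probe sets; it is a chosen level, and noise under it was not measured. All 14 listed stem cell markers with a probe set of their own were above it on both arrays, and on the array labelled knockout 7 of them were lower by 1.5-fold or more (Procr, Hlf, Mecom, Mllt3, Fgd5, Tek and Ndn). Of 13 granulocyte markers, 10 were higher on it by 1.5-fold or more (Mpo, Ctsg, Ms4a3, Lcn2, Ngp, Camp, Ltf, Chil3, S100a8 and S100a9). Of all 11547 genes above the floor on 1 or both arrays, 1.71% were that much higher and 2.63% that much lower. Y-linked transcripts (Eif2s3y, Kdm5d and Uty) were lower on the array labelled knockout, with log2 ratios from -1.03 to -0.70.

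Because Gata1 and Klf1 are themselves in the set, letters that these factors are known to read were searched for. The search took, on both strands, the 250 bases upstream of a RefSeq start of each gene (GRCm38.p6). The GATA letters were AGATAA, the same with T as the first base, with G as the last, or with both changes. The CACCC letters were CCNCNCCC, which other Krüppel-like and Sp factors also read, and overlapping matches were counted as 1 stretch. The table held windows for 6 of the 9 genes (Gata1, Klf1, Tfrc, Aqp1, Sptb and Hba-a2). That of Gata1 (chrX:7967911-7968160, minus strand) lies inside the span of the gene (chrX:7959260-7976663), not upstream of its outer start. A GATA match was found for 2 of the 6 and a CACCC match for the other 4. Of all 32851 windows of that length, 26.5% held a GATA match and 45.9% a CACCC match. The counts are of genes, and Tfrc had 2 windows, so they are not the same measure as these shares. With 6 genes, no excess over the shares is read from them. The windows below are printed 5′ to 3′ on the strand of the gene, with matches in capitals, for Klf1 and Hba-a2, which held the GATA matches, and for Tfrc, Sptb and Aqp1, whose signals differed most between the arrays among the genes with a window. They lie at chr8:84901732-84901981 (Klf1, plus strand), chr11:32296242-32296491 (Hba-a2, plus), chr16:32608646-32608895 (Tfrc, plus, the first of its 2 starts), chr12:76710548-76710797 (Sptb, minus) and chr6:55336049-55336298 (Aqp1, plus).
Klf1: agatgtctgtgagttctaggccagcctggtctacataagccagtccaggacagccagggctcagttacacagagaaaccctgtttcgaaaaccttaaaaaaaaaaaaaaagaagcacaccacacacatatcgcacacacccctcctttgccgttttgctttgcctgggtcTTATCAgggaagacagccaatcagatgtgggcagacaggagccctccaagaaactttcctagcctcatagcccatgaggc
Hba-a2: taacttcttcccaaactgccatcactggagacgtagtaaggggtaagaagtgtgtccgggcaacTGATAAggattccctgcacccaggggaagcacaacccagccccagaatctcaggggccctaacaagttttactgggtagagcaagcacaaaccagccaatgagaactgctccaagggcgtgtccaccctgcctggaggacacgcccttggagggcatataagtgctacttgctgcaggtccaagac
Tfrc: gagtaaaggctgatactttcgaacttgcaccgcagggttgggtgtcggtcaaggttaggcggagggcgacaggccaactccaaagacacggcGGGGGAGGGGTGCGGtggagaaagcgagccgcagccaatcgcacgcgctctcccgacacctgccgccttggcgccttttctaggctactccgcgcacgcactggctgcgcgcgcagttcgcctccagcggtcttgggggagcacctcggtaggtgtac
Sptb: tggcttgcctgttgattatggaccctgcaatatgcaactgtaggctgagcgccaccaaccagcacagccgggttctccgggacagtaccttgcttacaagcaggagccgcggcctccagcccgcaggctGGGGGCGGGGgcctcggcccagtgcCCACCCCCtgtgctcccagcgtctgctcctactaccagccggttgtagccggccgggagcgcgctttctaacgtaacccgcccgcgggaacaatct
Aqp1: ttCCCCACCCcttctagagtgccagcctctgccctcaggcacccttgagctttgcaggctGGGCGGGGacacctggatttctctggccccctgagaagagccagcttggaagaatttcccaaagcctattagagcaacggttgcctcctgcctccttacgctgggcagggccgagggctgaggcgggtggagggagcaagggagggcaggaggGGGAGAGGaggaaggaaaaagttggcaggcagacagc
The single match upstream of Klf1 read TGATAA on the opposite strand, 80 to 75 bases before the start. That of Hba-a2 read TGATAA on the gene's own strand, 186 to 181 bases before it. Tfrc had 1 CACCC stretch, Sptb 2 and Aqp1 3. A match is a description of the letters and not a bound site. Tfrc and Sptb, higher on the array labelled knockout, and Aqp1, lower on it, all held CACCC letters and no GATA letters in these windows.

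The erythroid genes did not move as a block. Of the 9, 8 were measured, meaning above the floor on 1 or both arrays, and Slc4a1 was not. On the array labelled knockout Tfrc and Sptb were at least 1.5-fold higher, Car1 and Aqp1 at least 1.5-fold lower, and Gata1, Klf1, Car2 and Hba-a2 lay between. In the background, 4.35% of 11547 measured genes were at least 1.5-fold different in either direction, 1.71% higher and 2.63% lower. The genes were chosen with these values known, so the share of them past 1.5-fold is a description. The same holds for the ranks and the shares among genes of similar brightness given below. The median log2 ratio of the 8 genes was -0.14, against 0.0023 for all measured genes. As a part of the technical error, log2 ratios of probe sets of 1 gene spread about the mean of that gene with an SD of 0.22, taken over 4632 genes. It comes from the same 2 arrays, so it holds no error between animals, RNA samples or arrays.

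**Figure D1:**
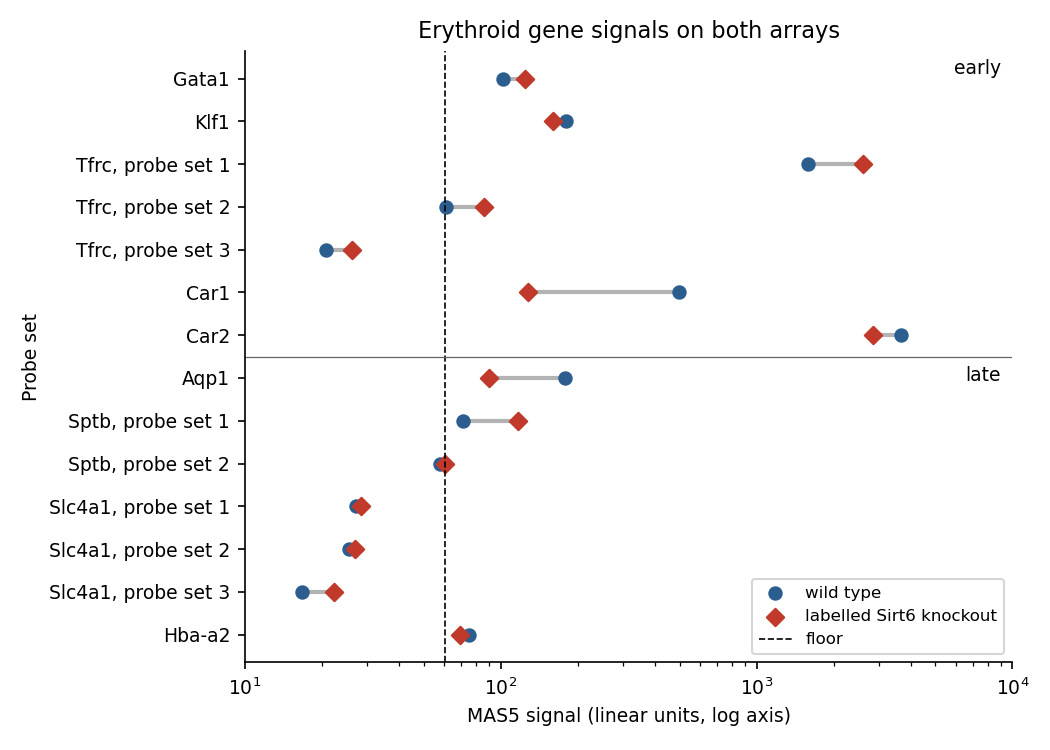
Signal of each of the 14 probe sets on the wild-type array (blue circles) and on the array labelled Sirt6 knockout (red diamonds), on a log axis in MAS5 signal units; the dashed line is the floor of 60.5 and the horizontal line parts early from late genes. Car1 and Aqp1 sit to the left on the array labelled knockout, the brightest Tfrc and Sptb probe sets to the right, and all 3 Slc4a1 probe sets lie under the floor.

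The master regulators of the lineage were above the floor on both arrays and stayed within 1.5-fold between them. Gata1 read 125 on the array labelled knockout and 102 in wild type, a ratio of 1.22 (log2 0.28). Klf1, its downstream factor, read 160 and 179 (log2 -0.17). Their differences pointed in opposite directions. That of Klf1 was smaller than the spread of 0.22 between probe sets of a gene, and that of Gata1 was larger. Among measured genes of similar brightness (mean log2 signal within 0.5), 35.1% lay at least as far from 0 as Gata1 and 48.9% as Klf1. Each had 1 probe set, so neither could be checked against a second one. Gata1 is also expressed by megakaryocytes, mast cells, basophils and eosinophils. Of the basophil, mast cell and eosinophil markers, 5 of 8 measured (Fcer1a, Mcpt8, Hdc, Siglecf and Prg2) were higher by 1.5-fold or more under the knockout label and Cma1 was lower, and their summed signal was 2780 against 1685. Of 9 measured megakaryocyte markers, 1 was higher (Itga2b) and 3 were lower (Pf4, Vwf and Rab27b), with sums of 2749 and 2596. Their part in the Gata1 value was not tested. In such bulk samples, fewer cells of a type and less RNA per cell cannot be told apart.

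The other transcription factors of the erythroid program mostly stayed within 1.5-fold. All 17 listed factors were measured, Gata1 and Klf1 among them, with 0 at least 1.5-fold higher and 1 lower. With 17 genes, no departure from the 4.35% of all measured genes is read from this. The lower gene was Bcl11a, a repressor of fetal-type globin genes. It read 886 against 1362 (log2 -0.62) on its brightest probe set, and over the 6 that were measured the log2 ratio ran from -0.62 to 0.19. Over the list the median log2 ratio came to 0.03. The largest positive ratio was that of E2f4, a cell cycle repressor needed for normal red cell formation, at 216 and 154 (log2 0.49, 1 probe set). Tal1, the bHLH factor that binds beside Gata1 in one complex, read 1620 and 1821 (log2 -0.17). Gata2, which Gata1 replaces at many sites as cells commit to the lineage, read 2964 and 2588 (log2 0.20). Its other measured probe set gave -0.23. Gfi1b, a repressor required in erythroid cells and megakaryocytes, read 396 and 367 (log2 0.11). On their brightest probe sets Tal1, Gata2 and Gfi1b differed by less than the spread between probe sets of a gene.

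Tfrc was the higher early gene. Its brightest probe set read 2608 on the array labelled knockout and 1595 in wild type, a ratio of 1.64 (log2 0.71). A second probe set read 86.0 and 61.4 (log2 0.49), so both measured probe sets were higher under the knockout label. The third read 26.3 and 20.8, under the floor on both arrays, and no direction was drawn from it. Of 894 measured genes of similar brightness, 10 (1.12%) lay as far from 0. Tfrc encodes the receptor that takes up transferrin-bound iron in all dividing cells, with its highest demand in erythroblasts. Markers of cycling cells were measured beside it. Of 14 genes of the G2 and M phases 0 differed at least 1.5-fold, and their summed signals were 19153 and 19046, which are close to equal. Only 4.35% of all measured genes differed that much, so 0 of 14 is near the background. The part of cycling cells in the Tfrc value was not tested. The largest differences among them were those of Plk1, a mitotic kinase (log2 0.31), and Cdc20, an activator of anaphase (0.25).

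Other genes of iron and heme metabolism were mostly level, with 1 further gene past 1.5-fold. Of 20 measured genes of this list, Tfrc included, 2 were higher and 0 lower, and the median log2 ratio was 0.08. The shares over all measured genes were 1.71% higher and 2.63% lower. The other higher gene was Alas1, the housekeeping form of the first enzyme of heme synthesis. It read 840 and 481 (log2 0.81), and another probe set of the gene gave 0.68. Alas2, the erythroid form of that enzyme, was under the floor on both arrays (23.0 and 30.8). Tfr2, the second transferrin receptor, read 1299 and 1331 (log2 -0.03). The mitochondrial iron importer Slc25a37 (mitoferrin-1) read 441 and 400 (log2 0.14). Fech, which inserts iron into heme in the last step, read 424 and 399 (log2 0.09). Ppox, which acts just before it, read 266 and 338 (log2 -0.35). Flvcr1, a heme exporter, read 1020 and 802 (log2 0.35), and Steap3, the ferrireductase of erythroblast endosomes, 110 and 86.2 (log2 0.35).

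Car1 had the largest difference of the set. It read 128 on the array labelled knockout and 499 in wild type, so its signal was 3.90-fold lower (log2 -1.96). This was rank 7 from the lowest of 11547 measured genes. Of 2272 genes of similar brightness, 1 lay at least as far from 0. Car1 encodes a cytosolic carbonic anhydrase, an enzyme that interconverts carbon dioxide and bicarbonate, and is expressed in erythroid progenitors of the mouse. The gene had 1 probe set, so the value rests on it alone.

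Its paralog Car2 encodes the other cytosolic carbonic anhydrase of red cells. It was lower in the same direction but to a smaller degree, at 2838 against 3652 (1.29-fold, log2 -0.36). This stayed under 1.5-fold. Bright genes varied less, and of 402 genes of similar brightness 11 (2.74%) lay as far from 0. Outside the red cell forms, 6 further carbonic anhydrases were measured, of which 0 differed at least 1.5-fold. They were Car3 (log2 -0.05), Car9 (-0.06), Car10 (0.46), Car11 (-0.11), Car12 (0.22) and Car14 (0.25). As only 4.35% of all measured genes were past 1.5-fold, 0 of 6 does not set these apart from other genes. The other 8 listed members of the family were under the floor on both arrays.

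Among the other red cell enzymes listed, Blvrb, a flavin and biliverdin reductase abundant in red cells, was lower at 187 against 292 (log2 -0.64). The antioxidant enzymes stayed close to equal. Prdx2, the main peroxiredoxin of the red cell, read 2056 and 2231 (log2 -0.12), with 0.48 on another probe set. Cat, catalase, read 730 and 640 (log2 0.19), and Gpx1, glutathione peroxidase, 5986 and 5732 (log2 0.06). Pklr, the pyruvate kinase of red cells and liver, read 274 and 217 (log2 0.34). Of the 8 genes of this list, 0 were higher and 2 lower, Car1 and Blvrb, and the median was -0.03. Among all measured genes the shares were 1.71% higher and 2.63% lower.

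**Figure D2:**
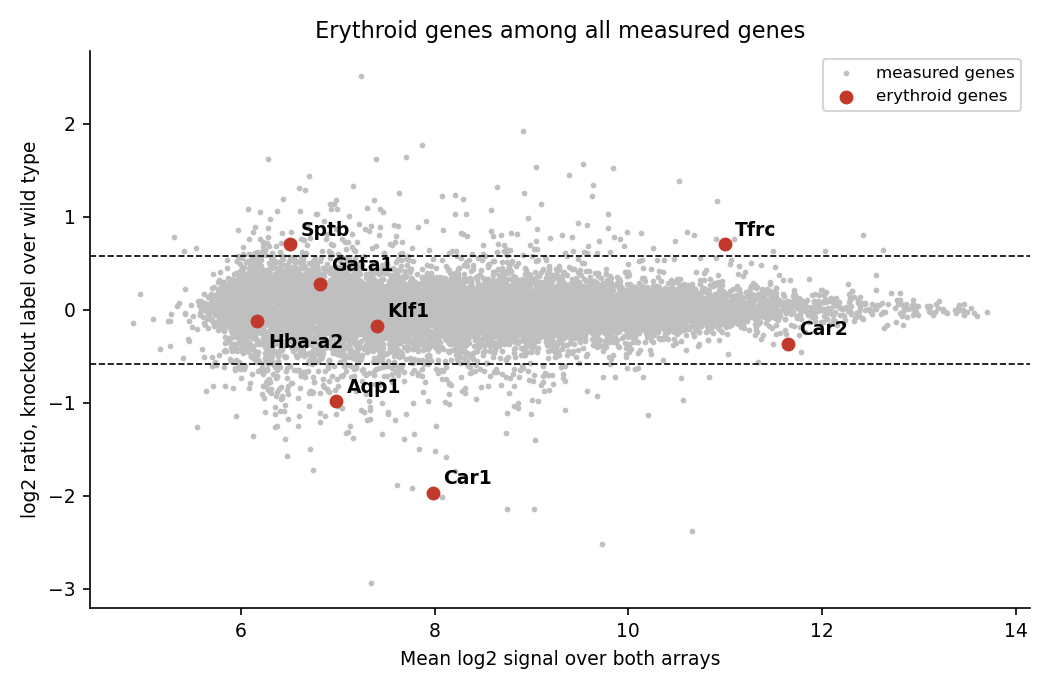
Log2 ratio (knockout label over wild type) against mean log2 signal for the 11547 measured genes (grey) and the 8 measured erythroid genes (red, named); dashed lines mark 1.5-fold in each direction. Car1 lies near the lower edge of all genes, Tfrc and Car2 lie at the edge of a narrow band of bright genes, and Sptb lies in a dim region where the grey points spread more widely.

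Aqp1 was the lower gene among the late ones. It read 90.0 on the array labelled knockout and 178 in wild type, 1.98-fold lower (log2 -0.98), on its only probe set. Of 2016 genes of similar brightness, 46 (2.28%) lay as far from 0. Aqp1 is the water channel of the red cell membrane and is also made by endothelium. Of 8 measured endothelial and stromal markers, 4 were lower by 1.5-fold or more under the knockout label and 2 higher, with summed signals of 1793 and 1903. Among all measured genes, 2.63% were that much lower and 1.71% higher. The lower ones were Cxcl12 (57.4 against 461), Emcn (62.5 against 176), Sparc (93.4 against 170) and Tek (135 against 210). The 3 measured probe sets of Sparc disagreed, with log2 ratios from -1.26 to 0.47. Pdgfrb (1049 against 556) and Pecam1 (214 against 133) were higher. Cdh5, a defining endothelial gene, was under the floor on both arrays (27.3 and 21.7). Emcn and Tek are also expressed by stem cells. The part of such cells in the Aqp1 value was not tested. Of the other aquaporins measured, Aqp3 read 214 and 275 (log2 -0.36) and Aqp9 270 and 372 (log2 -0.46). Aqp6 (-0.04), Aqp7 (0.13), Aqp11 (-0.18) and Aqp12 (0.19) were nearer to 0.

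Sptb, the beta chain of the erythrocyte spectrin skeleton, was higher on 1 probe set only. That probe set read 117 on the array labelled knockout and 71.5 in wild type, a ratio of 1.63 (log2 0.71). The other read 60.8 and 58.2 (log2 0.06), just above the floor on the array labelled knockout and under it in wild type. The probe sets differed from each other by more than the spread of 0.22. Of 2053 genes of similar brightness, 119 (5.80%) lay as far from 0, so this value is closer to the bulk of dim genes than those of Car1, Aqp1 or Tfrc. The spectrins of other cells were near equal: Sptan1 read 1379 and 1276 (log2 0.11) and Sptbn1 3270 and 3132 (log2 0.06). Sptbn4 read 81.5 and 65.2 (log2 0.32). Over 4 measured probe sets, Sptbn1 ran from -0.80 to 0.39.

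Slc4a1, the band 3 anion exchanger and a defining gene of maturing erythroblasts, was under the floor on all 3 probe sets on both arrays. They read 28.5, 26.9 and 22.2 on the array labelled knockout and 27.2, 25.7 and 16.7 in wild type. No ratio was drawn from these values. The membrane and skeleton list of 22 genes with a probe set of their own had 16 measured, with 1 higher (Sptb), 1 lower (Aqp1) and a median of 0.02. Over all measured genes the shares were 1.71% higher and 2.63% lower. Epb42, Rhag, Rhd, Kel and Xk, all membrane proteins of the red cell, were under the floor on both arrays alongside Slc4a1. Ank1, the ankyrin that ties band 3 to spectrin, read 133 and 127 (log2 0.06). Icam4, an erythroblast adhesion molecule, read 266 and 267 (log2 -0.01). Ermap, an erythroid membrane protein, read 35.3 on the array labelled knockout, under the floor, and 84.6 in wild type. It was at least 1.40-fold lower.

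Hba-a2, 1 of the adult alpha-globin genes, was just above the floor on its only own probe set. It read 69.1 on the array labelled knockout and 75.1 in wild type (log2 -0.12). Of 1927 genes of similar brightness, 67.0% lay as far from 0. Its near-identical copy Hba-a1 read 13.6 and 13.7 on a probe set of its own. A further 3 probe sets name both alpha-globin genes together and could not be given to either. They read 160, 713 and 440 on the array labelled knockout and 212, 802 and 574 in wild type, all lower on it by log2 0.17 to 0.40. Signals of the pair were thus above the floor on both arrays. The genes Hba-x, Hbb-bh1 and Hbb-y, which are embryonic globins, and Hbb-b2 were under the floor on both arrays on their own probe sets. A probe set that names 4 adult beta-globin genes together read 1726 on the array labelled knockout and 932 in wild type (log2 0.89). Eif2ak1, a kinase that matches globin synthesis to heme supply, read 334 and 309 (log2 0.11).

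Early and late genes did not separate by direction. Each stage had 1 gene at least 1.5-fold higher and 1 lower on the array labelled knockout. The median log2 ratio was -0.17 over the 5 early genes and -0.12 over the 3 measured late genes, a difference of -0.05. This difference rested on the stage given to single genes. With Aqp1 counted as early it was -0.56, and with Sptb counted as early 0.61. All 5 early genes and 3 of the 4 late ones were above the floor on both arrays, the exception being Slc4a1.

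Erythroid genes outside the set were mostly level. Over all erythroid lists, 70 genes besides the 9 were measured. Of these, 1 was at least 1.5-fold higher (Alas1), 3 were lower (Bcl11a, Blvrb and Ube2l6) and 66 lay between. Their median was 0.05. Against the background of 4.35%, these 4 of 70 are a share near that of all genes. Ube2l6, an interferon-inducible ubiquitin-conjugating enzyme listed with terminal maturation, read 47.6 and 91.9 and was at least 1.52-fold lower. In that list Xpo7, a nuclear exporter of maturing erythroblasts, read 917 and 1049 (log2 -0.19), and Mfsd2b, a lipid exporter of red cells, 125 and 96.0 (log2 0.39). The erythropoietin pathway had 10 of 10 genes within 1.5-fold. Its receptor Epor read 70.5 and 73.8 (log2 -0.07), near the floor. Jak2, the receptor's kinase, read 770 and 849 (log2 -0.14). The largest differences were those of Cish, a feedback inhibitor of Stat5, at 235 and 299 (log2 -0.35), and of Socs3, another such inhibitor, at 1024 and 850 (log2 0.27).

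**Figure D3:**
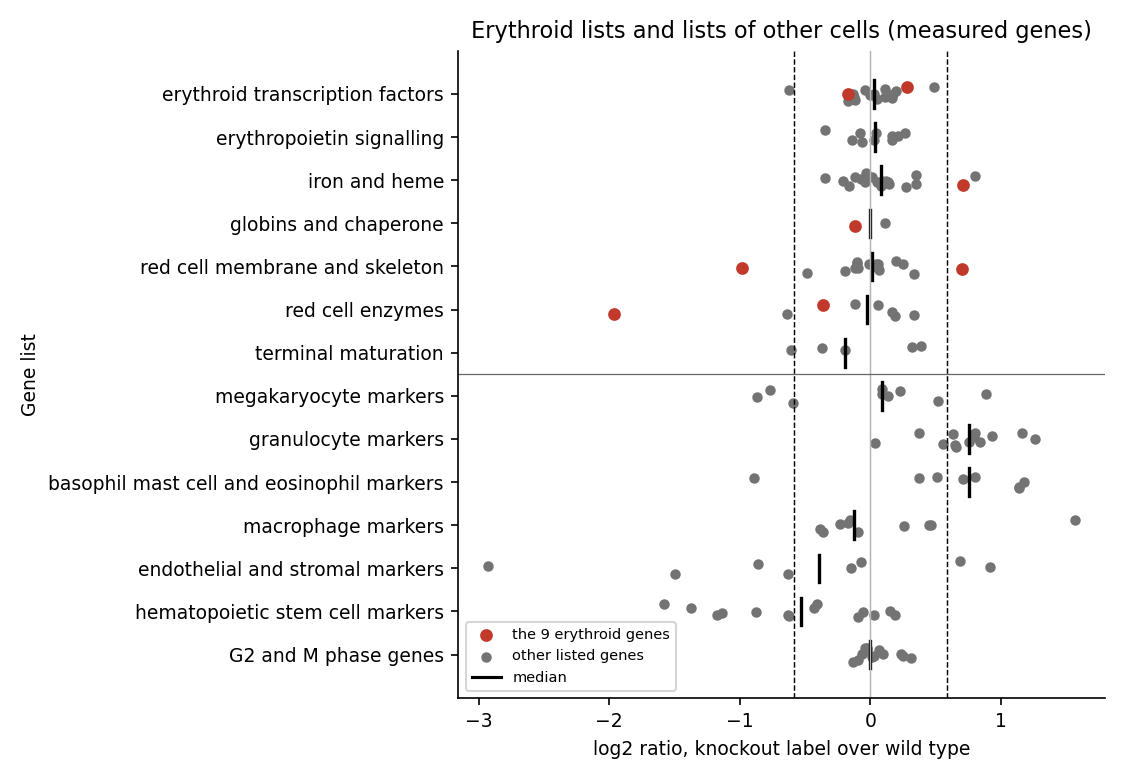
Log2 ratio (knockout label over wild type) of each measured gene in 7 erythroid lists (above the line) and in lists of other cells and of cycling genes (below it); red points are the 9 erythroid genes where measured, grey points other genes, black bars medians and dashed lines 1.5-fold. Erythroid lists centre near 0 with single genes outside, whereas granulocyte markers lie to the right and stem cell markers to the left.

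By closeness in the plane of both log2 signals, the measured genes nearest to Car1 were Tmem215, Mpp5 and Grb10, at distances of 0.14, 0.31 and 0.32. Nearest to Aqp1 were Ghr, Sdc1 and Zmat1 (0.01 to 0.04), to Tfrc S100a9, Ap3s1 and Fabp5 (0.14 to 0.16), and to Sptb Egfr, Sgca and Apoa4 (0.03 to 0.06). With 2 arrays such closeness says only that signals were alike. S100a9 is a granulocyte marker, and the granulocyte list as a whole had 13 of 13 positive ratios, with summed signals of 37308 and 23287. The macrophage markers had 1 of 10 measured genes at least 1.5-fold higher (F13a1) and 0 lower, with sums of 2897 and 1870. Most of the gap between these sums came from F13a1 (1273 against 428). The list's median log2 ratio was -0.13, with 4 genes positive and 6 negative. The part of such cells in the Tfrc value was not tested.

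**Figure D4:**
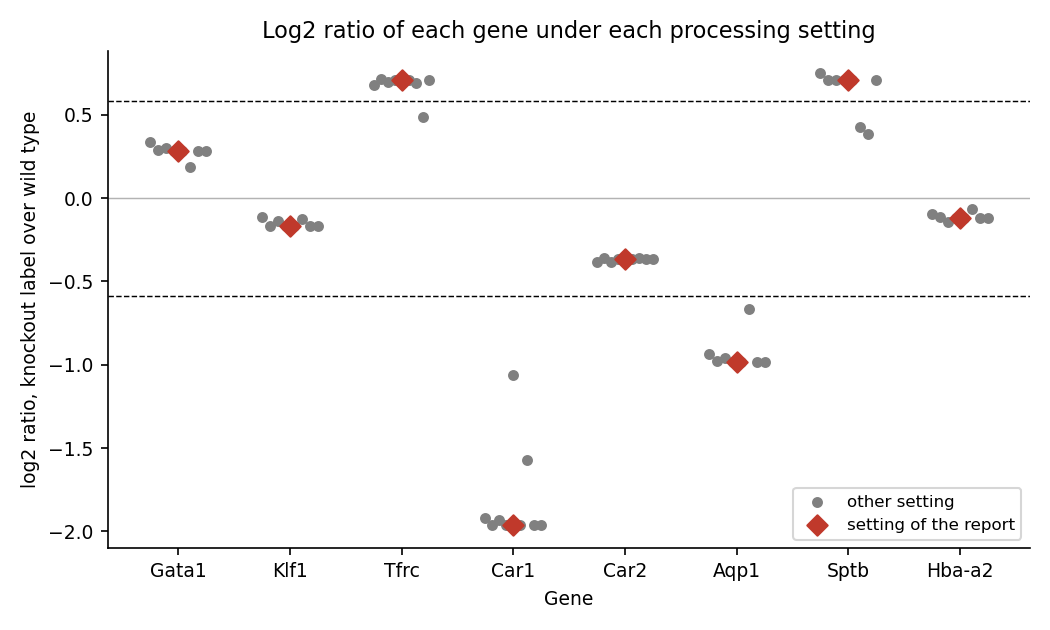
Log2 ratio (knockout label over wild type) of each of the 8 measured erythroid genes under the setting of the report (red diamonds) and under the other processing settings that gave it a value (grey); dashed lines mark 1.5-fold. Car1 and Aqp1 stay below the lower line, whereas Sptb falls inside the lines under 2 settings and Tfrc under 1.

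The direction of each measured gene of the set was the same under every setting that gave a value. Most settings could not have changed it. With a lower floor, no floor or no _x_at and _s_at probe sets, each of these genes kept its value exactly. A higher floor, or a pseudocount added to both arrays, cannot reverse a direction. Centring each array on its median shifts all ratios alike, and moved Hba-a2, the gene nearest to 0, from -0.119 to -0.116. The median over probe sets left the 6 genes with 1 probe set unchanged. For those 6, only quantile normalization and loess could have mattered. All settings used the same 2 arrays, so the counts below describe processing only. Car1 ranged from -1.96 to -1.06 over 10 settings and Aqp1 from -0.98 to -0.66 over 9. Tfrc ranged from 0.49 to 0.71, and was past 1.5-fold in 9 of 10 settings. Sptb ranged from 0.39 to 0.75, and was past it in 7 of 9. At 2-fold, Car1 was the 1 gene called, in a background of 0.97% of measured genes (0.398% higher and 0.572% lower).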

How the data were processed

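Values were 1 linear intensity per probe set and array, which the authors deposited after processing with MAS5, per the submitters' processing notes. The sources used here state no scaling target, software version or detection calls. Medians and trimmed means (2% off each end, 217 and 218) showed a common scale, so log2 signals were used as deposited.

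Of 45037 probe sets, 34945 named 1 gene on the platform annotation, 932 several and 9160 none. A gene was its brightest probe set by mean log2 signal. The floor was the median over probe sets of the mean log2 signal, and values under it were raised to it, so a ratio against such a value is a bound ("at least"). A gene above it on 1 or both arrays was measured. Differences were counted at 1.5-fold, with no test. Named were all 9 genes, list genes at least 1.5-fold different or else the 2 largest of a list, defining genes under the floor, measured relatives, and the 3 nearest genes. Other genes, such as Tal1, Fech or Gpx1, were named for their role after their values were seen. The members and lists were chosen with earlier results of these data known. Python 3.11.15, pandas 2.3.3 and statsmodels 0.14.6 (loess, span 0.3) were used. The steps were tested on simulated data, with planted differences well past 1.5-fold and equal noise at every brightness. That test does not bear on dim genes near 1.5-fold.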

Additional observations from a re-analysis of the deposited data

Results flagged for a closer look

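The probe set that names 4 adult beta-globin genes together, and so belongs to none of them alone, was outside the comparisons of genes and read higher on the array labelled knockout. Its signal was 1726 there and 932 in wild type, a log2 ratio of 0.89. The 3 probe sets shared by the adult alpha-globin genes had log2 ratios of -0.40, -0.17 and -0.38, and Hba-a2's own probe set gave -0.12. Of these alpha-globin values, -0.17 and -0.12 were smaller in size than the SD of 0.22 between probe sets of a gene. Each value comes from 1 array per genotype, and the cause was not tested.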

How the results depend on the processing

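No paired analysis was possible because each genotype had 1 array. For the same reason no array could be left out. Alternatives were 3 scalings, 3 other floors, a pseudocount, 2 ways of choosing probe sets, other folds and other stages. Counts of erythroid genes at least 1.5-fold higher and lower (2 and 2) became 1 and 1 with the floor raised to percentile 75, where 3 genes and no late one were measured, so the stages could not be compared there. The higher count was 1 with a pseudocount and 0 with the median over probe sets. At 2-fold the counts were 0 and 1. The difference between stages was -0.56 with Aqp1 and 0.61 with Sptb counted as early. In the wider erythroid lists, the 3 lower genes became 1 under quantile normalization and with the floor raised to that percentile, and 0 at 2-fold. The 1 higher gene became 2 without a floor and 0 at 2-fold. The causes were not tested. Other values of these summaries, 57 in all, stayed within 1.5 times (counts) or within the SD between probe sets of a gene (values). The median log2 ratio over all measured genes lay between -0.0042 and 0.03 under the settings of scaling, floor and probe set choice.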
